A study of Saccharomyces cerevisiae and Saccharomyces pastorianus with 78 samples.

Results

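The 32 genes described here are the iron uptake and iron regulon genes of budding yeast, taken by systematic name from a list that follows their known roles and was drawn up with earlier results of these data known. They are 32 of the 7127 features counted in Saccharomyces cerevisiae BY4741, and all 32 were among the 6101 features abundant enough to test. By role they comprise 3 wall mannoproteins (FIT1, FIT2, FIT3), 4 siderophore transporters (ARN1, ARN2, SIT1, ENB1), 5 surface reductases (FRE1 to FRE5), 3 plasma membrane iron transport proteins (FET3, FTR1, FET4) and 5 vacuolar proteins (FET5, FTH1, FRE6, SMF3, CCC1). The others are 2 copper delivery proteins (ATX1, CCC2), 4 regulators (AFT1, AFT2, YAP5, CTH2), the heme oxygenase HMX1, 3 mitochondrial proteins (MRS4, ISU1, ISU2), the biotin importer VHT1 and the tRNA-modifying enzyme TYW1.

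The study followed polyadenylated RNA of this haploid laboratory strain, labelled as wild type, after addition of either of a pair of agents that disturb the plasma membrane. Cultures were grown in rich YPD medium at 25 °C and split into aliquots. One aliquot received ethanol to 7% (EtOH) together with some fresh medium, and the other received the detergent sodium dodecyl sulfate to 0.01% (SDS). Cells were collected at 6 times from 0.5 to 20 h later (0.5, 1, 2 and 4 h, then 8 and 20 h), which with the control before addition makes 13 groups of 3 biological replicates, or 39 libraries. The control was drawn at an optical density near 0.1 from the aliquot that then received ethanol, so the SDS aliquot has no control of its own, and both courses are compared with the same 3 controls. No untreated culture was followed to later times, so time in culture and exposure cannot be told apart within either course. The comparison of EtOH with SDS at a matched time uses no control. In bulk RNA a lower level in every cell and a loss from some of the cells cannot be told apart.

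Yeast takes up iron mainly by reducing ferric iron at the cell surface and importing it through the high-affinity complex of the ferroxidase Fet3 and the permease Ftr1, or by importing iron bound to siderophores, the iron chelators that microbes release. When iron is low, the transcription factors Aft1 and its paralogue Aft2 activate these genes through promoter elements with the core GCACCC, and Cth2 promotes decay of messages for proteins that consume iron. Yap5 activates the vacuolar importer gene CCC1 when iron is high.

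The element is shown first because it is what many of the genes share in sequence. In the 250 bases before the coding start plus the first 50 coding bases, read from the R64 genome on both strands, GCACCC was present in 16 of the 32 genes (50%) against 255 of 6001 genes of the annotation (4.25%). Its 7-base form TGCACCC, nested in it, was present in 13 (40.6%) against 78 of 6001 (1.3%), and the shorter CACCC, the last letters of the core, in 20 (62.5%) against 1200 (20%). The YAP motif TTACTAA was found in 1 gene (FRE1; 3.12% against 7.45%) and the copper-regulator motif TTTGCTC in 3 (FRE1, FET3 and FTR1; 9.38% against 5.43%). A wider window of 500 bases, chosen after seeing the data, held GCACCC in 24 of the 32 genes (75%) against 457 of 6000 (7.62%) and TGCACCC in 22 (68.8%) against 140 (2.33%). These are matches of letters and not mapped binding sites. The list was drawn from the known iron regulon, which Aft1 and Aft2 activate through this core. A high share of the core therefore follows from the choice of genes and is no result of these data.

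The promoters of FIT1, FIT3 and FET3, whose results are given at length below, are printed 5′ to 3′ on the gene's strand for the 250 bases before the coding start. Capitals mark the core GCACCC or its reverse complement GGGTGC. FIT1 lies at chrIV:1504901-1505150 on the minus strand, FIT3 at chrXV:1061056-1061305 on the minus strand and FET3 at chrXIII:388572-388821 on the plus strand. FIT1 and FIT3, on different chromosomes, share an unbroken stretch of 25 bases around the core, which begins 192 bases before the start in FIT1 and 194 bases before it in FIT3.
FIT1: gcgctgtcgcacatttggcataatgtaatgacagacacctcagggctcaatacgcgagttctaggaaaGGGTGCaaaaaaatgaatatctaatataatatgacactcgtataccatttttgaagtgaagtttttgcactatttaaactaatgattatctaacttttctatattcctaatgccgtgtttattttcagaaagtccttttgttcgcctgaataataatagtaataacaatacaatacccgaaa
FIT3: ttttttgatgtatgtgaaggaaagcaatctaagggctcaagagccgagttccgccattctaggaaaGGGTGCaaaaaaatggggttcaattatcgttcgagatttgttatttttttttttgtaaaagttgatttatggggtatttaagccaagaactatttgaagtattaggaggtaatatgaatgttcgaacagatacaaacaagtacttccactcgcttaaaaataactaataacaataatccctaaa
FET3: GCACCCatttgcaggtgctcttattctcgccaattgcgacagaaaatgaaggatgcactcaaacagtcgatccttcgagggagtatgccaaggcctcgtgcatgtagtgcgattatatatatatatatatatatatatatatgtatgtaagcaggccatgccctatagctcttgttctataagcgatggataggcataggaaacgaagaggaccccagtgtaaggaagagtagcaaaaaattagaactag

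Single windows of 20 bases around the core, in capitals and in the core's own orientation, compare genes that were lower in SDS (FIT1, FIT3, SIT1, FTR1, MRS4) with genes that were not (ATX1, CCC2, FET5). The core lies 182 bases before the coding start in FIT1, 184 in FIT3, 188 in SIT1, 174 in FTR1, 237 in MRS4, 116 in ATX1, 242 in CCC2 and 127 in FET5. The windows lie at chrIV:1505070-1505089, chrXV:1061227-1061246, chrV:27462-27481 (minus strand), chrV:461902-461921 (minus strand), chrXI:533689-533708 (minus strand), chrXIV:157969-157988, chrIV:1005426-1005445 (minus strand) and chrVI:49005-49024, in that order. The windows of FIT1 and FIT3 are identical.
FIT1: tttttttGCACCCtttccta
FIT3: tttttttGCACCCtttccta
SIT1: ccagattGCACCCtcaaatg
FTR1: gatgaatGCACCCgatttct
MRS4: tattttgGCACCCtttcttg
ATX1: caactttGCACCCccaaaaa
CCC2: ccgcactGCACCCgttcttt
FET5: tcagtctGCACCCtgtttcg

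Among the 17 genes called lower in SDS at some time, 10 held GCACCC in the shorter window, against 6 of the other 15. In the window of 500 bases the core was present in 15 of the 17 and in 9 of the 15. FIT3, called lower, and FRE5, not called, are neighbours on opposite strands that share the sequence between them. Their cores in this window are the same sites, so they count once in each group.

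**Figure D1:**
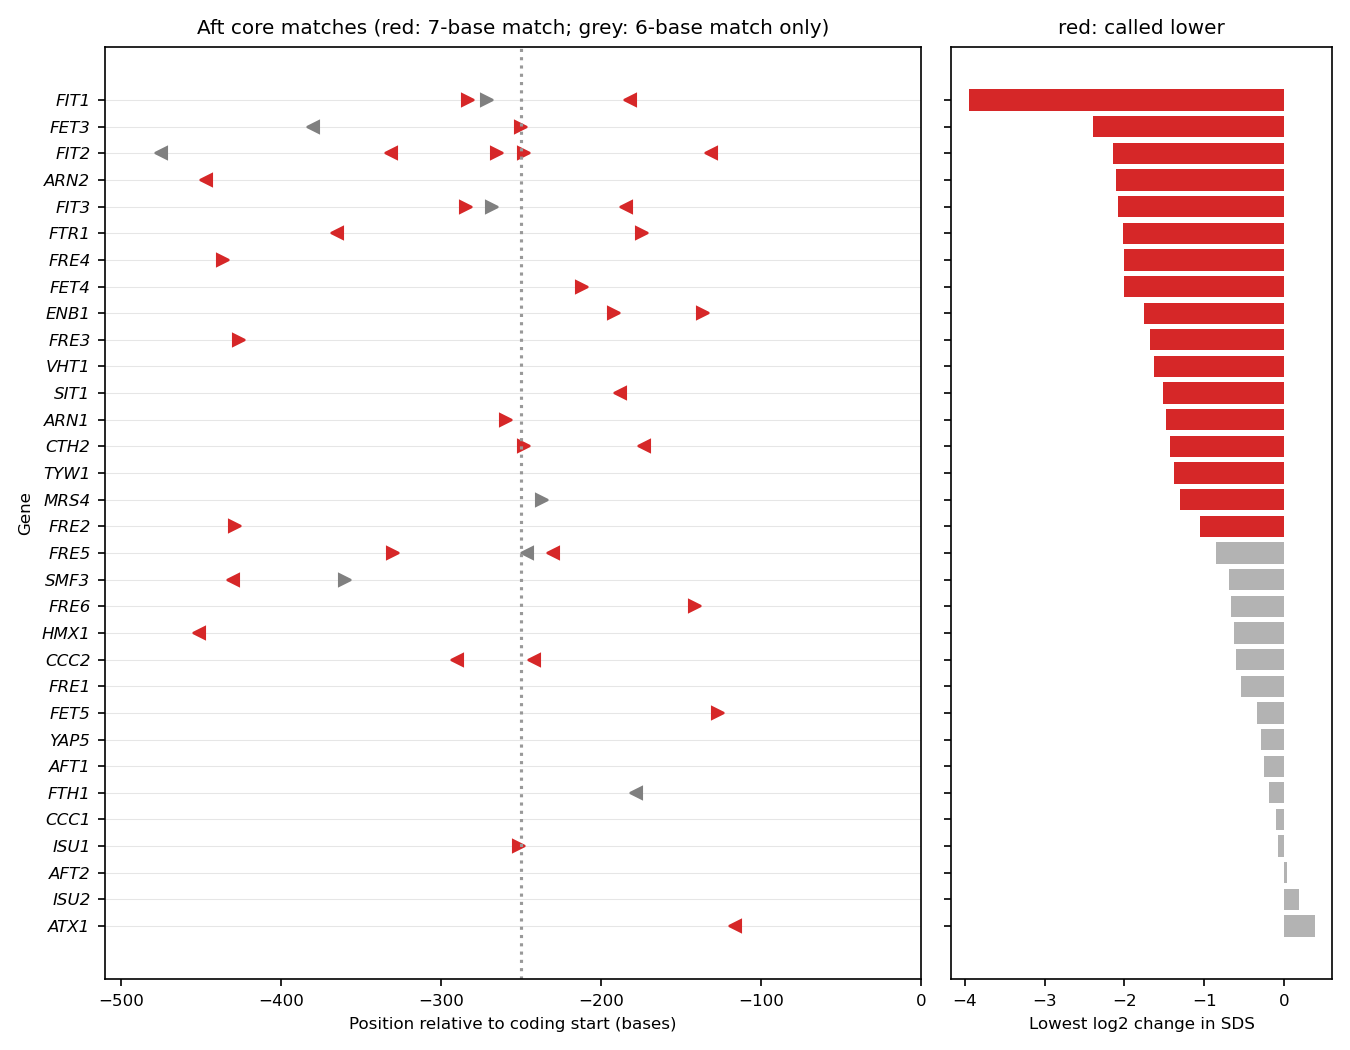
Positions of GCACCC within 500 bases before the coding start of each of the 32 genes (x axis in bases), with red triangles for the 7-base form TGCACCC, grey triangles for the core alone, their direction giving the orientation, and a dotted line at 250 bases. Bars at the right give each gene's lowest log2 change in SDS against control, red where the gene was called lower, and sites are seen beside both red and grey bars. The sites of FIT3 and FRE5 are the same genome positions, drawn for both genes.

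Library totals ranged from 3105804 to 21167236 counts with a median of 7706767, so 3 counts, the limit that a count of 0 allows, correspond to between 0.142 and 0.966 CPM. CPM are counts scaled to library size with TMM factors, and the limit covers counting error only. Markers of the strain were read as well. LEU2, MET17 and URA3, which are deleted in BY4741, had 0 counts in all 39 libraries. The mating-type a gene STE2 stood at 133 to 686 CPM. Of the mating-type alpha genes STE3 stood at 1.1 to 9.51 CPM and MF(ALPHA)1 at 0 to 1.61 CPM. EtOH 20 h replicate 3 stood furthest apart. Its chi-square per degree of freedom was 227 and 126 against replicates 1 and 2 of its group, against 30.2 between those 2. The called values at 20 h in EtOH are therefore given with and without it. At every earlier time in EtOH, replicate 3 was also further from replicates 1 and 2 than those were from each other. The values were 40.3 and 16.4 against 7.59 at 2 h, and 39.8 and 17.4 against 7.62 at 4 h. For those times only calls that changed without 1 library are marked. No pair of replicates was alike enough to be a repeated deposit of one library. FIT1 is the only gene of the set with repeated sequence, in 11.9% of its 50-base stretches, where the authors' counting could lose or share reads. None of the 32 overlaps another gene of the annotation.

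In SDS 1 of the 3 wall mannoprotein genes, 3 of the 4 siderophore transporter genes, 2 of the 5 surface reductase genes and all 3 plasma membrane transport genes were called lower than in the control at 0.5 h. Here a gene is called when its adjusted p is under 0.05 and its log2 change is at least 1 in size, and changes are log2 values ± SE. Called lower were 12, 13, 13, 12, 10 and 15 of the 32 genes at the 6 times in order, where 10.6%, 5.56%, 3.67%, 2.79%, 2.03% and 1.97% of all tested genes were called lower. The median log2 change of the 32 was -0.76, -0.82, -0.75, -0.54, -0.55 and -0.87 at these times, while the median of all tested genes stayed between -0.03 and 0.05 in every comparison. All 3 SDS libraries lay below all 3 controls in 22, 21, 19, 19, 20 and 25 of the 32 genes, against 34.3%, 30%, 28%, 33.9%, 28.3% and 26.3% of all tested genes. Over the course 17 of the 32 genes were called lower at 1 or more times (13.2% of all genes), 13 at 4 or more (2.02% of all genes), and 8 at all 6 (0.688% of all genes). The 8 were FIT1, ARN2, FRE3, FRE4, FET3, FTR1, MRS4 and VHT1. The 6 comparisons share the control libraries. HMX1 at 4 h was the single gene called higher in SDS, where 7.69% of all genes were. At the other times 0 of the 32 were called higher, against 8.49%, 5.79%, 5.8%, 4.11% and 2.7% of all genes at 0.5, 1, 2, 8 and 20 h.

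In EtOH few of the genes were called in either direction. Called higher were 1, 1, 2, 1, 2 and 3 genes from 0.5 to 20 h, against 0.918%, 1.1%, 1.56%, 3.29%, 7.2% and 9.67% of all genes. Called lower were 0, 0, 0, 1, 3 and 3 genes, against 1.26%, 1.25%, 1.28%, 1.72%, 3.02% and 4.25% of all genes. Median log2 changes lay between -0.03 and 0.15. Counts in both directions together were small enough to turn on 1 library. They were 0 at 0.5 h without control replicate 3 or EtOH replicate 3, 0 at 1 h without control replicate 3, 2 at 1 h without EtOH replicate 3, 0 at 2 h without control replicate 2, 1 at 2 h without control replicate 3 and 4 at 4 h without EtOH replicate 3. Without EtOH 20 h replicate 3, 4 genes were called higher and 2 lower at 20 h, with ARN1 gained at 1.01 and TYW1 lost at -0.97. The genes called lower at some time were FIT1, ARN2, FRE4 and TYW1, and those called higher were FIT3, CCC2, HMX1 and ISU2. With 4 of 32 in each direction, against 7.38% of all genes lower and 11.2% higher at some time, the share called higher was near that of all genes.

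Compared directly at matched times, 14, 15, 12, 11, 10 and 14 of the 32 genes were higher in EtOH than in SDS, against 12.5%, 7.57%, 4.34%, 4%, 5.34% and 8.64% of all genes. One gene, CCC1 at 20 h, was lower in EtOH, where 5.2% of all genes were. At the 5 earlier times 0 of the 32 were lower, against 11.6%, 7.47%, 6.93%, 7.1% and 3.33% of all genes. Without EtOH 20 h replicate 3 the counts at 20 h were 15 higher and 1 lower, with FET4 gained at 1.16. At 4 h the count was 7 without EtOH 4 h replicate 3 and 13 without EtOH 4 h replicate 1. Higher in EtOH at 1 or more times were 19 of the 32 genes, against 21.9% of all genes. FIT1, FET3, FTR1, CCC2, CTH2 and VHT1 were higher at all 6 times, as were 0.623% of all genes. Within a course, 1 of the 32 genes was higher and 3 were lower at 20 h than at 0.5 h in SDS, against 7.54% and 4.61% of all genes, and 1 was higher and 3 lower in EtOH, against 10.5% and 4.77%. In either direction these are 4 of 32 in each course, near the 12.1% of all genes in SDS and 15.2% in EtOH. Without EtOH 20 h replicate 3 the latter counts were 1 and 2. In none of the 18 comparisons were FRE1, FRE5, FET5, FTH1, FRE6, SMF3, ATX1, AFT1, AFT2, YAP5 or ISU1 called, while 58% of all genes were called in none.

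**Figure D2:**
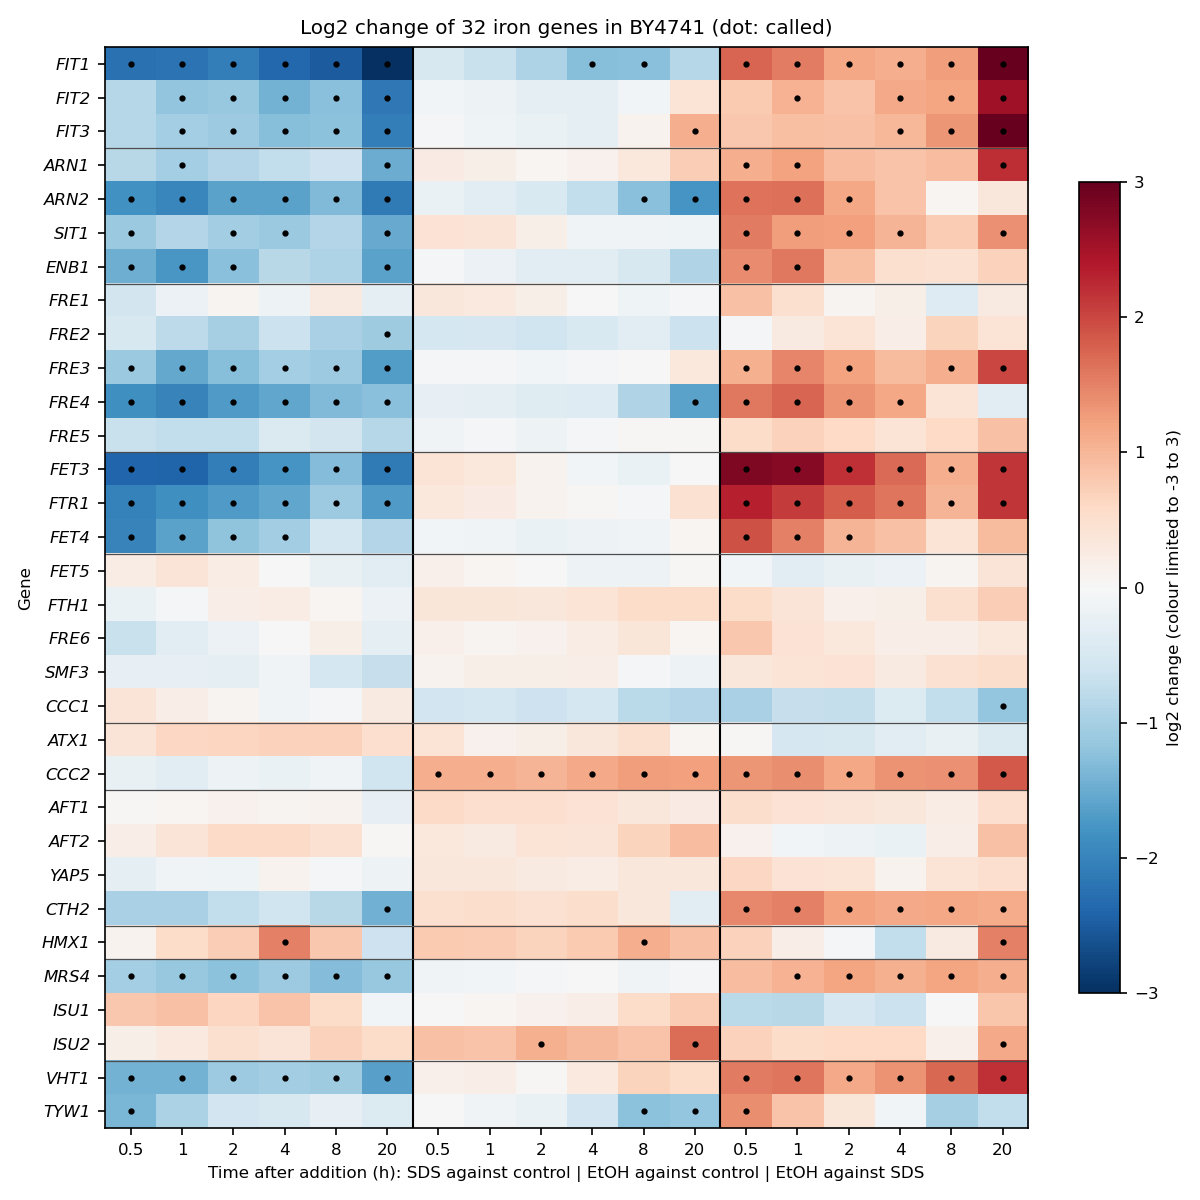
Log2 change of the 32 genes (rows, grouped by role) in 18 comparisons (columns: SDS against control, EtOH against control and EtOH against SDS, each from 0.5 to 20 h), with dots on called values. The SDS columns are lower for 10 to 15 genes at each time, concentrated in the wall, siderophore, reductase and plasma membrane groups, while the EtOH columns carry 0 to 3 dots in either direction.

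The FIT genes encode mannoproteins anchored in the cell wall, where they help to retain iron bound to siderophores. FIT1 (YDR534C, chrIV:1503314-1504900) had 238, 256 and 331 CPM in the controls, 64.4, 53.4 and 58.2 CPM after 0.5 h in SDS, and 16, 12.3 and 25.5 CPM after 20 h. All SDS libraries at both times lay below all controls. The log2 change was -2.23 ± 0.29 at 0.5 h (adjusted p = 6.44e-08) and -3.95 ± 0.33 at 20 h (adjusted p = 4.98e-11), the lowest value of any of the 32 genes in the 12 comparisons with the control. At 1, 2, 4 and 8 h between these it lay from -2.50 to -2.07. FIT1 also fell in EtOH at 4 h (95.7, 95 and 151 CPM; -1.27 ± 0.28, adjusted p = 0.000656) and at 8 h (133, 120 and 92.2 CPM; -1.25 ± 0.28, adjusted p = 0.000388), again with all libraries below the controls. At 20 h in EtOH its libraries stood at 200, 166 and 91.5 CPM with a change of -0.85, which was not called (-0.58 without replicate 3). Leaving out EtOH replicate 3 made FIT1 called lower at 1 h (-1.06) and 2 h (-1.19), as did leaving out control replicate 1 at 2 h (-1.02) or EtOH replicate 1 at 20 h (-1.09).

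FIT3 (YOR383C, chrXV:1060441-1061055) was lower in SDS and higher in EtOH at 20 h. Its controls stood at 1294, 1247 and 1633 CPM, its SDS 20 h libraries at 244, 236 and 507 CPM and its EtOH 20 h libraries at 3898, 3229 and 1702 CPM. Every SDS library lay below and every EtOH library above the controls, with EtOH replicate 3 close to the highest control. The change was -2.08 ± 0.26 in SDS (adjusted p = 1.9e-07) and 1.08 ± 0.25 in EtOH (adjusted p = 0.000493), and the call in EtOH was lost without EtOH 20 h replicate 1 (0.83) and stood at 1.36 without replicate 3. The difference between EtOH and SDS at 20 h was 3.16 ± 0.27 (adjusted p = 3.19e-11) and 3.44 without EtOH 20 h replicate 3. At 0.5 h in SDS FIT3 read 743, 762 and 799 CPM (-0.86), which did not pass the limit on size. From 1 to 8 h it was called lower with -1.03, -1.08, -1.27 and -1.22. The call at 1 h was lost without control replicate 3 (-0.90), SDS 1 h replicate 2 (-0.99) or SDS 1 h replicate 1 (just short of the limit), and that at 2 h without control replicate 3 (-0.95).

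FIT2 (YOR382W), which lies beside FIT3 on chromosome XV, went from 552, 554 and 787 CPM in the controls to 105, 96.9 and 229 CPM at 20 h in SDS (-2.14 ± 0.32, adjusted p = 3.21e-06), with no overlap. It was called lower from 1 h onward, and the call at 2 h was lost without control replicate 3 (-0.94). In EtOH FIT2 was not called, and its libraries at 20 h stood at 1123, 885 and 498 CPM. The difference between EtOH and SDS at 20 h was 3.10 ± 0.32 for FIT1 (adjusted p = 1.9e-09) and 2.54 ± 0.32 for FIT2 (adjusted p = 7.86e-08), or 3.37 and 2.81 without EtOH 20 h replicate 3. At earlier times these differences were smaller and several rested on EtOH replicate 3. FIT1 lost its call without that library at 2 h (0.88) and 4 h (0.83) and without SDS replicate 2 at 2 h (0.94) or SDS replicate 3 at 4 h (0.92). FIT2 lost it without EtOH replicate 3 at 1 h (0.70) and 4 h (0.79) and without SDS replicate 2 at 1 h (0.98). FIT3 at 4 h, at 1.00, lost it without EtOH replicate 3 (0.76), SDS replicate 2 (0.99) or SDS replicate 3 (0.92).

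In these genes replicate 3 often differed from the others. In the controls and at 0.5, 1, 2 and 4 h in EtOH, replicate 3 was the highest of the 3 for FIT1, FIT2, FIT3, ARN2 and FRE3, and at 20 h in EtOH it was the lowest for the same 5 genes. Whether the replicate number marks a shared culture is not stated, and a fit with that number as a block changed the count of called members in 1 of the 18 comparisons, from 11 to 10 between the agents at 4 h.

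The ARN transporters import iron bound to siderophores made by other microbes: Arn1 carries ferrichrome, Arn2 triacetylfusarinine C, Sit1 ferrioxamine B and Enb1 enterobactin. All 4 genes were called lower at 20 h in SDS, and 3, 3, 3, 2 and 1 of them at 0.5, 1, 2, 4 and 8 h. ARN2 (YHL047C) had 784, 796 and 1029 CPM in the controls and fell within 0.5 h in SDS to 248, 252 and 242 CPM (-1.81). By 20 h in SDS it stood at 154, 161 and 288 CPM (-2.11 ± 0.26, adjusted p = 1.07e-07), below all controls. ARN2 also fell late in EtOH, to 303, 326 and 467 CPM at 8 h (-1.25 ± 0.25, adjusted p = 8.94e-05) and to 320, 261 and 184 CPM at 20 h (-1.77 ± 0.25, adjusted p = 6.56e-07; -1.58 without EtOH 20 h replicate 3), with no overlap with the controls. It was higher in EtOH than in SDS at 0.5, 1 and 2 h (1.63, 1.65 and 1.15) and differed by 0.07 and 0.34 at 8 and 20 h, which were not called. The call at 2 h was lost without EtOH 2 h replicate 3 (0.89), and without EtOH 4 h replicate 3 ARN2 was called lower than the control at 4 h (-1.08).

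ARN1 (YHL040C) read 257, 240 and 272 CPM in the controls, 88.2, 81.2 and 106 CPM at 20 h in SDS and 603, 428 and 256 CPM at 20 h in EtOH. The SDS libraries lay below all controls, and in EtOH replicates 1 and 2 lay above them while replicate 3 lay among them. The change was -1.48 ± 0.19 in SDS (adjusted p = 2.16e-07) and 0.74 ± 0.18 in EtOH, under the limit on size, and the difference between the agents was 2.22 ± 0.19 (adjusted p = 2.87e-11), or 2.49 without EtOH 20 h replicate 3. ARN1 was also called lower in SDS at 1 h (127, 123 and 129 CPM; -1.02 ± 0.18), a call lost without control replicate 3 (-0.97) and, just short of the limit, without SDS 1 h replicate 2. Its higher level in EtOH than in SDS at 0.5 h (1.09) was lost without EtOH 0.5 h replicate 3 (0.95).

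SIT1 (YEL065W) averaged 585 ± 30.4 CPM (SD, n = 3) in the controls and 204 ± 20 CPM at 20 h in SDS (-1.52 ± 0.19), and it was also called lower at 0.5, 2 and 4 h. The call at 2 h was lost without control replicate 1 (-0.99), SDS 2 h replicate 2 (-0.87) or SDS 2 h replicate 3 (-0.94). ENB1 (YOL158C) averaged 742 ± 54.4 CPM in the controls, reached its lowest level at 1 h in SDS (225, 204 and 232 CPM; -1.75 ± 0.14, adjusted p = 6.53e-12), and was called lower at 0.5, 1, 2 and 20 h. At 4 and 8 h ENB1 stood at 414 ± 8.97 and 390 ± 40.8 CPM, below the controls but under the limit on size. Leaving out SDS 8 h replicate 3 brought ENB1 to -1.01 at 8 h, and leaving out EtOH 20 h replicate 1 brought it just past the limit at 20 h in EtOH (-0.90 with all libraries), both then called.

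The FRE genes encode metalloreductases. Fre1 and Fre2 carry most of the ferric and cupric reductase activity of the cell surface, Fre3 acts on iron in siderophores, and Fre4 and Fre5 are related to it. FRE4 (YNR060W) reached its lowest level in SDS at 1 h, from 110, 110 and 105 CPM in the controls down to 26.6, 28.8 and 25.3 CPM at 1 h (-2.01 ± 0.13, adjusted p = 6.31e-14), and it was called lower at all 6 times. In EtOH it remained at 81 to 103 CPM in single libraries through 2 h and then reached 33.5, 33.2 and 39.6 CPM at 20 h (-1.61 ± 0.13, adjusted p = 1.36e-11; -1.70 without replicate 3), below all controls. Without EtOH 8 h replicate 3 it was already called at 8 h (-1.08). At 20 h the SDS libraries stood at 41.3, 41.4 and 53.6 CPM, and the difference between the agents was -0.35, which was not called, against 1.75 at 1 h.

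FRE3 (YOR381W) had 68.6, 60.2 and 75.5 CPM in the controls, 18.2, 20 and 25.9 CPM at 20 h in SDS, and 89.6, 84.1 and 82.1 CPM at 20 h in EtOH. The 3 groups did not overlap. The change was -1.68 ± 0.26 in SDS (adjusted p = 7.72e-06), and the difference between the agents was 2.00 ± 0.26 (adjusted p = 1.5e-07), or 2.03 without EtOH 20 h replicate 3, while the EtOH value was not called against the control. FRE3 was called lower at all 6 times in SDS, but the call at 4 h (-1.02) was lost without control replicate 3 (-0.94) or SDS 4 h replicate 1 (-0.90). At 0.5 h in EtOH its libraries stood at 45.3, 51.6 and 100 CPM, and the difference from SDS at 0.5 h (1.07), 2 h (1.20) and 8 h (1.10) was lost without EtOH replicate 3 of that time (0.63, 0.89 and 0.96).

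FRE2 (YKL220C) stood at 27.1, 30.9 and 29.5 CPM in the controls and at 15.3, 12.2 and 14.6 CPM at 20 h in SDS (-1.06 ± 0.13, adjusted p = 2.22e-07). The groups did not overlap, though the call was lost without SDS 20 h replicate 2 (-0.96). At 2 and 8 h in SDS FRE2 lay just short of the limit at -0.99 and -0.98, and leaving out 1 library or scaling with DESeq2 took it past. FRE1, whose controls averaged 539 CPM, lay between -0.54 and 0.26 in SDS and between -0.12 and 0.34 in EtOH. FRE5 lay between -0.85 and -0.44 in SDS, and neither gene was called.

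Fet3 is the multicopper oxidase that oxidizes ferrous iron at the cell surface, and Ftr1 is the permease that carries the product inward with it. FET3 (YMR058W, chrXIII:388822-390732) read 1038, 942 and 1019 CPM in the controls, 212, 196 and 167 CPM at 0.5 h in SDS and 1157, 1266 and 1558 CPM at 0.5 h in EtOH. The SDS libraries lay below all controls and the EtOH libraries above them. The change was -2.38 ± 0.18 in SDS (adjusted p = 8.69e-13) and 0.41 in EtOH, which was not called, and the difference between the agents was 2.79 ± 0.19 (adjusted p = 2e-14). FTR1 (YER145C, chrV:460526-461740) read 318, 333 and 365 CPM in the controls, 92.2, 78 and 80.1 CPM at 0.5 h in SDS and 386, 408 and 477 CPM at 0.5 h in EtOH, and again the groups did not overlap. Its change in SDS was -2.02 ± 0.16 (adjusted p = 2.79e-12) and its difference between the agents 2.34 ± 0.16 (adjusted p = 7.84e-14).

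Both genes were called lower at all 6 times in SDS, with the smallest changes at 8 h (-1.31 for FET3, at 403 ± 18.4 CPM, and -1.08 for FTR1, at 161 ± 12.2 CPM) and larger ones again at 20 h (FET3 at 229 ± 14.4 CPM, FTR1 at 104 ± 5.23 CPM). At 20 h in EtOH FET3 stood at 1354, 1053 and 631 CPM and FTR1 at 615, 472 and 300 CPM, with replicate 3 below the controls for both. The difference between the agents at 20 h was 2.15 for both genes, or 2.40 for FET3 and 2.39 for FTR1 without that library. For FTR1 the difference at 8 h (1.01) was lost without SDS 8 h replicate 1 (0.97) or replicate 2 (0.99).

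Fet4 is the low-affinity transporter of ferrous iron, which also carries other metals. FET4 (YMR319C) averaged 320 ± 30.7 CPM in the controls and stood at 91.6, 81.1 and 67.4 CPM at 0.5 h in SDS, below all controls. It fell by 2.00 ± 0.17 on the log2 scale (adjusted p = 1.16e-11). Its changes at 1, 2 and 4 h were -1.61, -1.21 and -1.04, and at 8 and 20 h -0.52 and -0.89, not called. The call at 4 h was lost without control replicate 1 (-0.98) or SDS 4 h replicate 3 (-0.91). FET4 was not called in EtOH, and it was higher in EtOH than in SDS at 0.5 h (1.92), 1 h and 2 h (1.01). The value at 2 h was lost without any one of EtOH replicate 1 (0.96), EtOH replicate 2 (0.97), SDS replicate 2 (0.94) or SDS replicate 3 (0.89).

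**Figure D3:**
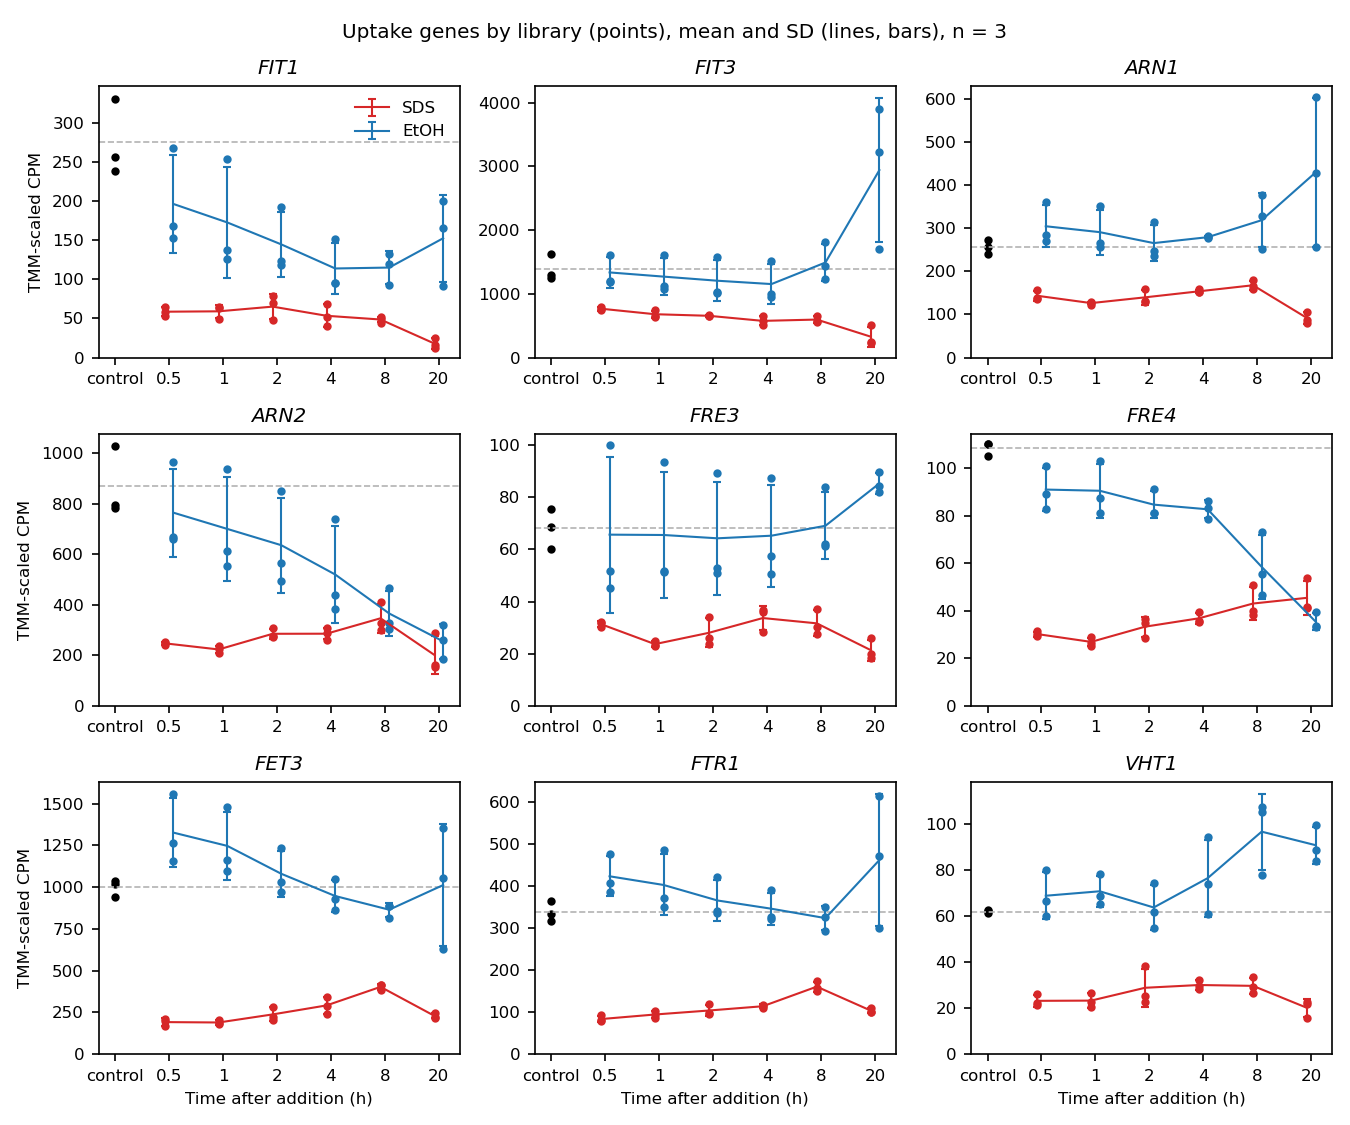
CPM (linear axis) of 9 genes against hours after addition, with red for SDS, blue for EtOH and points for single libraries. Lines and bars give the mean and SD of 3 replicates, and black points and a dashed line give the controls and their mean. In SDS FET3 and FTR1 drop within 0.5 h and stay below the controls, while in EtOH FIT3 ends above them and ARN2 and FRE4 end below them.

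The vacuole stores iron, which Ccc1 imports and which Fre6, Fet5, Fth1 and Smf3 help to return to the cytosol. No gene of this group was called against the control in either course. CCC1 (YLR220W) read 65, 73.1 and 77.8 CPM in the controls, 89.3, 83.8 and 88.9 CPM at 20 h in SDS, and 36, 37.3 and 44.8 CPM at 20 h in EtOH, so that the SDS libraries lay above and the EtOH libraries below the controls. The difference between the agents was -1.15 ± 0.09 (adjusted p = 1.43e-11), or -1.25 without EtOH 20 h replicate 3, opposite in sign to every other called difference in the set. At the earlier times it lay between -0.97 and -0.40. Leaving out EtOH 0.5 h replicate 2 took the value at 0.5 h to -1.05, then called.

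Copper reaches Fet3 through the chaperone Atx1 and the Golgi copper pump Ccc2. CCC2 (YDR270W) read 65.5, 49.6 and 46.1 CPM in the controls, 109, 146 and 124 CPM at 20 h in EtOH, and 45.5, 29.3 and 31.7 CPM at 20 h in SDS. All EtOH libraries lay above the controls, and all SDS libraries lay below the lowest of them. The change in EtOH was 1.23 ± 0.15 (adjusted p = 2.56e-08; 1.24 without EtOH 20 h replicate 3), that in SDS was -0.60 and not called, and the difference between the agents was 1.84 ± 0.15 (adjusted p = 1.24e-11; 1.85 without that library). CCC2 rose in EtOH at all 6 times, from 112, 103 and 129 CPM at 0.5 h (1.09 ± 0.15, adjusted p = 3.86e-06). The calls nearest the limit were lost without control replicate 3 at 0.5 h (1.00), 1 h (0.98) and 2 h (0.91), without control replicate 2 at 2 h (0.96), and without EtOH replicate 3 at 0.5 h (1.00) and 2 h (0.90). ATX1 was not called.

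The messages of the 3 transcription factors were not called in any comparison. AFT1 (YGL071W) read 131, 122 and 105 CPM in the controls and 172, 175 and 184 CPM at 0.5 h in EtOH, above all controls but with a change of 0.57 ± 0.09 (adjusted p = 7.8e-05), under the limit on size. In SDS it lay between -0.25 and 0.12. AFT2 (YPL202C) read 60.1, 60.2 and 57.9 CPM in the controls and 114, 111 and 115 CPM at 20 h in EtOH (0.93 ± 0.09, adjusted p = 1.42e-09; 0.92 without replicate 3), also without overlap and also under the limit. In SDS at 20 h AFT2 stood at 60.3, 58.1 and 64.3 CPM, overlapping the controls. YAP5 (YIR018W) read 40.8, 44.1 and 50.1 CPM at 0.5 h in EtOH and 28.4, 29.6 and 30 CPM at 0.5 h in SDS (difference 0.62 ± 0.17, adjusted p = 0.00156, not called). Its controls, at 35.6, 41.4 and 30.5 CPM, overlapped the EtOH libraries and lay above the SDS libraries.

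CTH2 (YLR136C), whose promoter window holds the core at 2 positions, read 65.3, 54 and 49.6 CPM at 1 h in SDS and 135, 142 and 202 CPM at 1 h in EtOH, where the controls stood at 144, 102 and 87 CPM. The agents did not overlap and differed by 1.51 ± 0.19 (adjusted p = 8.57e-08). CTH2 fell in SDS at 20 h, to 48, 38.1 and 37.9 CPM (-1.43 ± 0.20, adjusted p = 1.06e-06), below all controls. At 0.5 and 1 h its change in SDS was -0.98, just short of the limit, and it was called without control replicate 2 (-1.03 and -1.04), control replicate 3 (-1.12 and -1.13) or SDS replicate 1 of that time (-1.12 and -1.10). It was higher in EtOH than in SDS at the other times by 1.11 to 1.45, and by 1.10 at 20 h without EtOH 20 h replicate 3.

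HMX1, which encodes the heme oxygenase that frees iron from heme, was the gene called higher in SDS. It (YLR205C) read 24.5, 25.9 and 27.7 CPM in the controls and 81.6, 79.5 and 62.4 CPM at 4 h in SDS (1.52 ± 0.27, adjusted p = 2.08e-05), above all controls. At 20 h in SDS it stood at 20.9, 13.8 and 16 CPM, below all controls, with a change of -0.63 that was not called. In EtOH HMX1 rose at 8 h to 60.3, 52.5 and 54.2 CPM (1.09 ± 0.27, adjusted p = 0.00114), and at the other times its change lay between 0.66 and 0.89 and was not called. At 0.5 to 4 h in EtOH replicate 3 was the highest, at 57.1 to 64.7 CPM. The difference between the agents at 20 h was 1.52 ± 0.29 (adjusted p = 3.83e-05), or 1.60 without EtOH 20 h replicate 3. Without SDS 0.5 h replicate 1 HMX1 was also called higher in EtOH than in SDS at 0.5 h (1.02).

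In mitochondria Mrs4 imports iron, and Isu1 and Isu2 are the scaffolds on which iron-sulfur clusters are assembled. MRS4 (YKR052C) fell in SDS and was not called in EtOH, where its change lay between -0.10 and -0.01. It read 97.1, 96.3 and 74.2 CPM in the controls and 37.2, 34.2 and 37.4 CPM at 8 h in SDS (-1.30 ± 0.13, adjusted p = 3.46e-09), below all controls, and was called lower at all 6 times. The call at 0.5 h (-1.02) was lost without control replicate 1 (-0.95), control replicate 2 (-0.96) or SDS 0.5 h replicate 3 (-0.96), and that at 4 h without SDS 4 h replicate 1 (-0.99). MRS4 was higher in EtOH than in SDS from 1 h onward by 1.05 to 1.19, with 1.07 at 20 h when EtOH 20 h replicate 3 was left out, and these calls were lost at 1 h without SDS replicate 3 (0.93) and at 4 h without SDS replicate 1 (0.99).

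ISU2 (YOR226C) rose in EtOH. It read 28, 21.4 and 25.7 CPM in the controls and 91.6, 89.3 and 60.4 CPM at 20 h in EtOH (1.68 ± 0.12, adjusted p = 1.24e-12; 1.85 without replicate 3), and all EtOH libraries lay above the controls. It was also called higher at 2 h (54.9, 54.1 and 49.6 CPM; 1.07), a call lost without control replicate 2 (0.97), and at 4 h it lay at 0.97 and was called without control replicate 1 (1.06), EtOH 4 h replicate 2 (1.02) or EtOH 4 h replicate 3 (1.03). In SDS ISU2 lay between 0.18 and 0.70, and the difference between the agents at 20 h was 1.14 ± 0.12, or 1.31 without EtOH 20 h replicate 3. ISU1 was not called, with controls at 148, 81.8 and 93.6 CPM. Without control replicate 1 it was called higher in SDS at 0.5, 1 and 4 h (1.10, 1.20 and 1.15) and in EtOH at 20 h (1.05).

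Vht1 imports biotin, whose synthesis needs an iron-sulfur enzyme. VHT1 (YGR065C) read 62.4, 61 and 62 CPM in the controls, 21.9, 15.7 and 22.6 CPM at 20 h in SDS, and 99.5, 88.6 and 83.8 CPM at 20 h in EtOH, and the 3 groups did not overlap. The change was -1.63 ± 0.18 in SDS (adjusted p = 1.38e-08) and 0.55 in EtOH, which was not called, and the agents differed by 2.18 ± 0.18 (adjusted p = 9.39e-12; 2.24 without EtOH 20 h replicate 3). VHT1 was called lower at all 6 times in SDS, with the call at 2 h lost without SDS 2 h replicate 2 (-0.94) and that at 8 h without SDS 8 h replicate 1 (-0.98). Without SDS 2 h replicate 2 the call between the agents at 2 h was lost as well (0.98).

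Tyw1 is an iron-sulfur enzyme that modifies a transfer RNA. TYW1 (YPL207W) read 302, 296 and 312 CPM in the controls, 96.6, 115 and 138 CPM at 0.5 h in SDS and 301, 311 and 303 CPM at 0.5 h in EtOH. The SDS libraries lay below all controls and the EtOH libraries among them. It fell by 1.38 ± 0.15 on the log2 scale in SDS at 0.5 h (adjusted p = 2.46e-09) and differed between the agents by 1.39 ± 0.15 (adjusted p = 1.58e-09). At 8 h TYW1 stood at 123, 127 and 137 CPM in EtOH (-1.23 ± 0.15, adjusted p = 6.98e-08) and at 256 ± 22 CPM in SDS, where it was not called. The difference between the agents at 8 h was -0.99, short of the limit, and it was called without EtOH 8 h replicate 3 (-1.04) or SDS 8 h replicate 1 (-1.06). In EtOH at 20 h it read 171, 139 and 94.1 CPM (-1.17 ± 0.15, adjusted p = 1.32e-07), a call lost without EtOH 20 h replicate 3 (-0.97). Without SDS 1 h replicate 3 TYW1 was also called lower in SDS at 1 h (-1.06).

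**Figure D4:**
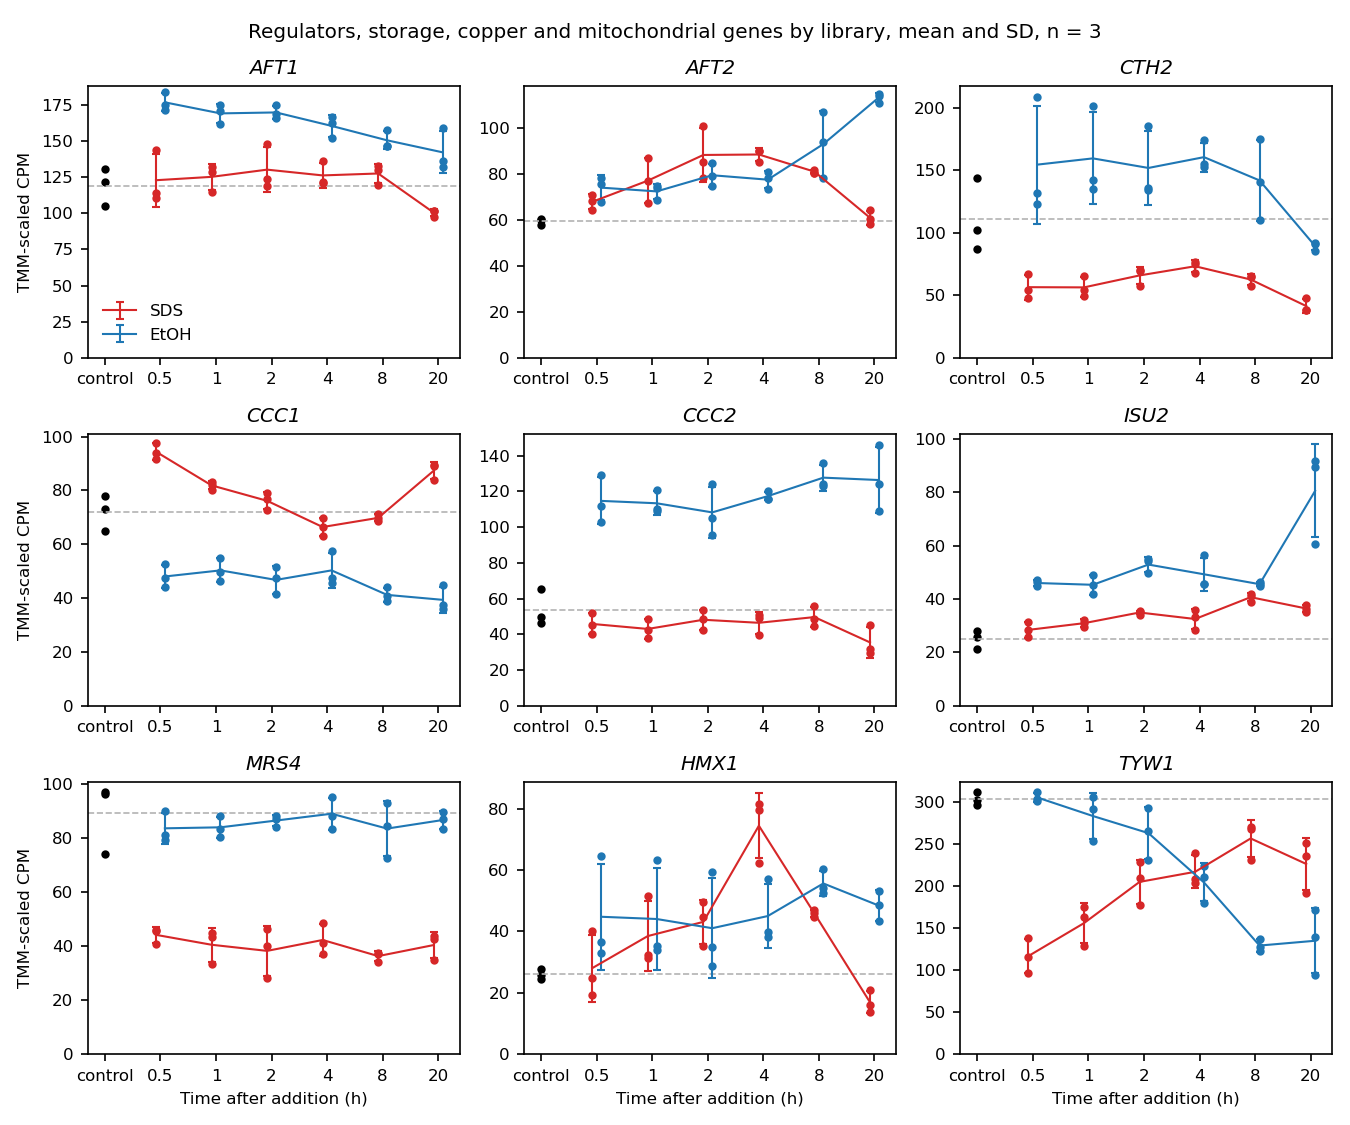
CPM (linear axis) of 9 regulators and internal iron genes against hours after addition, drawn as for the uptake genes. Red is SDS and blue is EtOH, with the mean and SD of 3 replicates, and the controls are in black. CCC2 and ISU2 lie above the controls in EtOH, MRS4 lies below them in SDS, CCC1 separates in the opposite direction at 20 h, and the TYW1 means cross between 0.5 and 8 h.

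Levels in the controls, compared per kilobase of coding length, were led by FIT3 with 2262 CPM per kb, followed by FIT2 with 1366, FET3 with 523 and ARN2 with 467. ENB1 with 408, SIT1 with 310 and FTR1 with 279 came next. The lowest were CCC2 with 17.8 and FRE2 with 13.7 CPM per kb.

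Genes for proteins that consume iron are given for comparison. Of 19 enzymes with iron-sulfur, heme or other iron centres, 4, 4, 4, 1, 1 and 5 were called higher in SDS from 0.5 to 20 h, against 8.49%, 5.79%, 5.8%, 7.69%, 4.11% and 2.7% of all genes. Called lower in SDS were 3, 2, 0, 1, 1 and 0, against 10.6%, 5.56%, 3.67%, 2.79%, 2.03% and 1.97% of all genes. The single enzymes higher or lower at 4 and 8 h are shares near those of all genes. In EtOH 0, 0, 1, 5, 8 and 2 were called lower, against 1.26%, 1.25%, 1.28%, 1.72%, 3.02% and 4.25% of all genes, and 0 were higher at any time. The 8 at 8 h were ACO1, SDH2, LEU1, ILV3, CCP1, ERG3, ERG25 and OLE1, and leaving out 1 library or changing the setting gave 6 to 8. Compared directly, 6, 6, 7, 9, 10 and 8 of the 19 were lower in EtOH than in SDS, against 11.6%, 7.47%, 6.93%, 7.1%, 3.33% and 5.2% of all genes. Higher in EtOH were 2, 0, 1, 1, 0 and 0, against 12.5%, 7.57%, 4.34%, 4%, 5.34% and 8.64%. The count lower at 20 h was also 8 without EtOH 20 h replicate 3. With 1 library left out or the setting changed, the count lower ran from 8 to 10 at 8 h and from 6 to 8 at 20 h. At 8 h in EtOH CCP1 lost its call without control replicate 1 (-0.95), EtOH 8 h replicate 1 (-0.94) or replicate 2 (-0.97), and ERG3 without control replicate 3 (-0.93), EtOH 8 h replicate 1 (-0.99) or, just short of the limit, replicate 2. At 20 h in EtOH 4 enzymes were called lower without EtOH 20 h replicate 1 and 3 without replicate 3, and without the latter ACO1 (-0.98) and LEU1 (-0.87) lost their calls. At 1 h in SDS 0 enzymes were called lower without control replicate 3.

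ACO1, the mitochondrial aconitase and an iron-sulfur enzyme, read 770, 786 and 746 CPM in the controls, 5021, 4544 and 4485 CPM at 1 h in SDS and 394, 423 and 408 CPM at 1 h in EtOH. The groups did not overlap, and the agents differed by -3.52 ± 0.17 (adjusted p = 3.89e-17). CTT1, the cytosolic catalase, a heme enzyme that many stresses induce, read 89.9, 126 and 174 CPM at 4 h in SDS and 12.4, 13 and 15.9 CPM in EtOH (-3.23 ± 0.23, adjusted p = 4.62e-13), without overlap. OLE1, the di-iron fatty acid desaturase, read 452, 506 and 536 CPM at 8 h in SDS and 76.2, 81.3 and 101 CPM in EtOH (-2.54 ± 0.29, adjusted p = 2.17e-08), also without overlap.

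**Figure D5:**
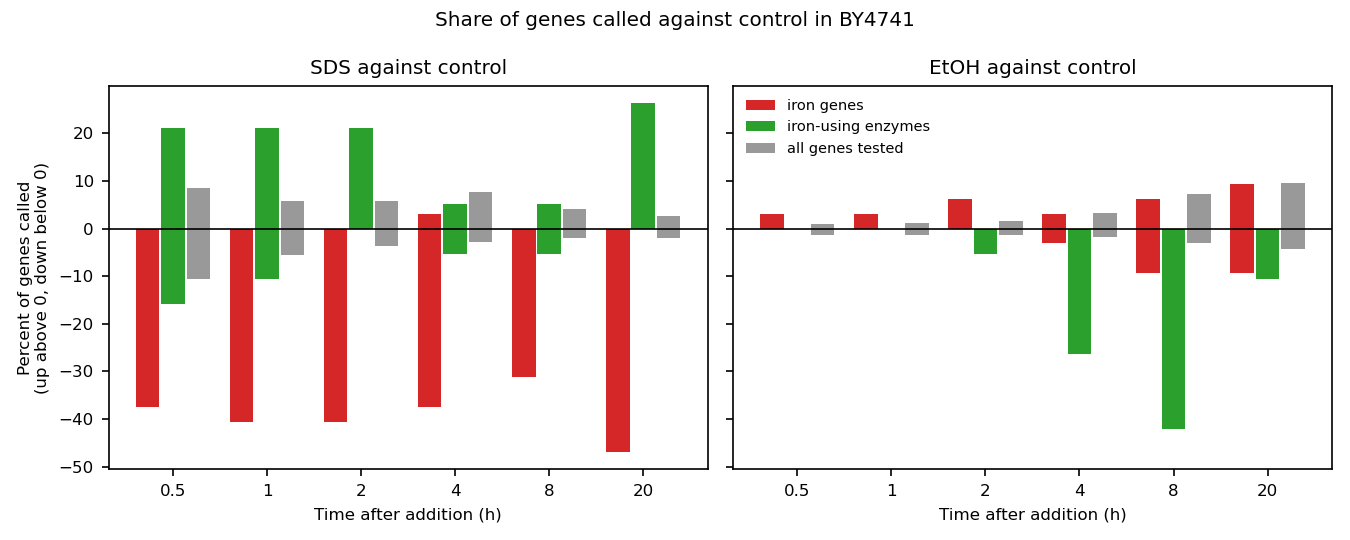
Percent of genes called higher (up) or lower (down) at each time, in SDS against control and in EtOH against control. Bars are for the 32 iron genes, the 19 iron-using enzymes and all 6101 tested genes. The iron genes exceed all genes among those lower in SDS, and the enzymes exceed all genes among those lower in EtOH at 8 h.

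Other lists related to iron and metals gave single genes of note. In iron-sulfur assembly (21 genes), YFH1, the mitochondrial frataxin, averaged 26.1 ± 2.56 CPM in EtOH and 67.8 ± 4.82 CPM in SDS at 20 h (-1.37 ± 0.14, adjusted p = 1.12e-09; -1.37 without EtOH 20 h replicate 3). At 0.5 h NAR1 (88.6 against 37.9 CPM; 1.22 ± 0.11) and the ferredoxin gene YAH1 (34.7 against 16.2 CPM; 1.10 ± 0.15) were higher in EtOH than in SDS. Among 5 iron sensing partners GRX4, a glutaredoxin that inhibits Aft1 when iron is sufficient, read 14.9, 14.6 and 18.8 CPM in EtOH and 56.4, 51.2 and 52.2 CPM in SDS at 20 h (-1.72 ± 0.13, adjusted p = 3.86e-12; -1.85 without that library), without overlap. Against the control, YFH1 (-1.17) and GRX4 (-1.37) were called lower at 20 h in EtOH, also without EtOH 20 h replicate 3 (-1.16 and -1.49). CTH1, the paralogue of CTH2, read 53.5, 92.2 and 304 CPM in EtOH at 20 h, overlapping SDS. Its called difference of 1.25 ± 0.30 (adjusted p = 0.000708) went to 0.20 without EtOH 20 h replicate 3 and had an adjusted p of 0.113 in a fit of the 6 libraries compared.

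In heme synthesis (8 genes) the ferrochelatase gene HEM15 averaged 55.1 ± 2.25 CPM in EtOH and 155 ± 6.47 CPM in SDS at 20 h (-1.49 ± 0.07, adjusted p = 8.3e-18; -1.47 without EtOH 20 h replicate 3). Against the control HEM15 was called lower at 20 h in EtOH (-1.12; -1.10 without that library). HEM13 fell at 8 h in EtOH from 119 to 45.7 CPM (-1.39 ± 0.13). Of 8 tested copper genes COX17, a copper chaperone of mitochondria, rose from 12.2 to 39.8 CPM at 20 h in EtOH (1.71 ± 0.13; 1.62 without replicate 3), and the reductase gene FRE7 was lower in EtOH than in SDS at 2 h (17.2 against 48.7 CPM; -1.51 ± 0.13). Of 6 zinc genes ZRT1, the high-affinity zinc importer, averaged 219 ± 32.3 CPM in EtOH and 41.6 ± 7.57 CPM in SDS at 20 h (2.39 ± 0.23, adjusted p = 3.96e-10; 2.47 without EtOH 20 h replicate 3). Against the control ZRT1 was called higher at 20 h in EtOH (2.26; 2.33 without that library). Of 6 other transport genes ZRC1, a vacuolar zinc transporter, was higher in EtOH than in SDS at 0.5 h (514 against 207 CPM; 1.31 ± 0.12).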

How the data were processed

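Gene counts of the 39 BY4741 libraries were used as deposited. The authors made these raw counts on build R64, per the submitters' processing notes, which name featureCounts 2.0.1, STAR 2.7.8, Trimmomatic 0.39 and FastQC 0.11.9. The sources used here give neither the strand setting nor the treatment of multiply mapped reads. In R 4.3.3, edgeR 4.0.16 filtered low counts over the 13 groups, scaled by TMM and fitted 1 coefficient per group. Contrasts used its quasi-likelihood test, with Benjamini-Hochberg adjustment over 6101 genes. The SE is the log2 change divided by the root of F. The fit was tested on simulated data. CPM are TMM-scaled.

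The members and lists were chosen with earlier results of these data known. All 32 members are accounted for. Given by library were, in each role, up to 2 members (3 in a role of 5) with the largest called change, and always AFT1, AFT2, YAP5 and CTH2. Up to 3 called genes per other list were also named, some by library and the others by group mean. FIT2, SIT1, ENB1 and FET4 were added once their values had been seen, SIT1 by group mean only. Other settings tried were RLE size factors, no filter, DESeq2 1.42.0, a replicate block, only the 6 libraries compared, and leaving out each library. The S. pastorianus libraries were not used here.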

Additional observations from a re-analysis of the deposited data

Results flagged for a closer look

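In 8 pairs of gene and agent the level differed between 0.5 and 20 h, by a test of 20 h against 0.5 h. They cover 4 of 32 genes in each course, with FIT3 in both. These shares are near the 12.1% of all tested genes called in SDS and the 15.2% called in EtOH. In SDS 3 wall mannoprotein genes went further down, with log2 differences of 20 h against 0.5 h of -1.72 for FIT1 (adjusted p = 3.69e-05), -1.27 for FIT2 (adjusted p = 0.00085) and -1.22 for FIT3 (adjusted p = 0.000137). FET4, the low-affinity transporter, went the other way, by 1.11 (adjusted p = 1.53e-06), from 80 CPM at 0.5 h to 173 CPM at 20 h.

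In EtOH FIT3 was higher at 20 h than at 0.5 h by 1.14 (adjusted p = 0.00028), a call lost without EtOH 20 h replicate 1 (0.88) and at 1.41 without EtOH 20 h replicate 3. For ARN2 the difference was -1.58 (adjusted p = 3.16e-06; -1.39 without EtOH 20 h replicate 3), for FRE4 -1.36 (adjusted p = 5.48e-10; -1.45 without it) and for TYW1 -1.18 (adjusted p = 1.2e-07), the last a call lost without EtOH 20 h replicate 3 (-0.98). All are from edgeR's quasi-likelihood test with Benjamini-Hochberg adjustment, and time in culture cannot be told apart from exposure.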

How the results depend on the processing

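No named gene changed sign at the 1 comparison by which it was named. CTH1 at 20 h in EtOH against the control, called at 1.04, went to -0.00 without EtOH 20 h replicate 3. Medians near 0 did change sign. The median of the 32 genes in EtOH went from 0.08 to -0.03 at 2 h without EtOH 2 h replicate 3. For EtOH 20 h against 0.5 h it went from -0.04 to at most 0.04 with 1 library left out. Against the control in EtOH it then ran from -0.04 to 0.06 at 4 h and from -0.06 to 0.06 at 8 h. Over RLE scaling, DESeq2, no filter, the replicate block and fits of only the 6 libraries compared, all 110 counts stayed within 1.5 times their value, and the 20 named members, each at the 1 comparison where its change was largest or by which it was named, kept their direction and call in all 100 values. Leaving out 1 library kept 190 counts and moved 8, and kept 119 values of those 20 pairs of member and comparison and weakened 1 (FRE2 at 20 h in SDS). For the 14 named genes of other lists, each at 1 comparison, 69 values kept their call and 1 did not (CTH1, at 1.30 with only the 6 libraries), and with 1 library left out 83 did and 1 did not. Calls at other comparisons were lost more widely: without the filter MRS4 at 0.5 h (-0.97), FIT3 (-0.97) and ARN1 (-0.96) at 1 h and FRE3 (-0.97) at 4 h in SDS, with FET4 and VHT1 at 4 h rounding to the limit, CCP1 (-0.99) and ERG3 (-0.97) at 8 h in EtOH, and SDH2 at 4 h in EtOH with RLE (-0.99), DESeq2 (-0.99) or no filter (-0.98); LEU1 at 20 h in EtOH had an adjusted p of 0.0614 with only the 6 libraries. Calls of the 32 genes lost without 1 library stand beside the values printed above. The cause was not tested. The median log2 change of the 32 genes moved by more than its spread at 20 h in SDS with RLE scaling (-0.88) or no filter (-0.85), and at 8 h in EtOH with no filter (0.02). RLE scaling shifted the fit by at most 0.029. With 1 library left out the medians ran from -0.80 to -0.68 in SDS at 0.5 h, from -0.93 to -0.83 in SDS at 20 h, from -0.26 to -0.16 for SDS 20 h against 0.5 h, and from -0.06 to 0.06 in EtOH at 8 h. Between the agents they ran from 0.57 to 0.82 at 2 h and from 0.41 to 0.59 at 8 h. Counts of called members ran from 0 to 1, 0 to 2, 0 to 3 and 2 to 4 in EtOH at 0.5, 1, 2 and 4 h, and from 7 to 13 between the agents at 4 h. The labels do not say whether replicate numbers pair the libraries, and a shared culture was not tested. Cultures were split into aliquots that were followed over time, so some libraries may be matched or repeated samples of 1 culture. The main fit, its SE and the tests of 20 h against 0.5 h treated all 39 libraries as independent. Deviations of same-numbered libraries had a median correlation of 0.052 and a lowest of -0.42, against a median of -0.027 for different numbers. Of the 54 same-numbered pairs in the 18 comparisons 21 were over 0.1, and 33 of 39 libraries correlated best with their own number. The fit with the number as a block moved 1 count, from 11 to 10 between the agents at 4 h (FIT3 at 0.97). At this depth levels below 0.142 to 0.966 CPM could not be seen.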
